A study of Mus musculus with 6 samples.

Results

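Retnla, Retnlg, Chi3l1, Chi3l3 and Ear11 encode secreted proteins of 3 families. Macrophages can release some of these proteins when interleukin 4 (IL-4) drives the cells into the alternatively activated state. The 5 genes were chosen by name, and a probe set was taken when its only annotated symbol was one of them. This gave 4 probe sets for 4 genes, 1 each for Retnla, Chi3l3, Ear11 and Chi3l1, out of 38544 probe sets with a single symbol, which name 20967 genes. No probe set had Retnlg as its only symbol, so this gene has no value here. A further probe set is annotated to both Chi3l3 and Chi3l4 and is given apart.

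IL-4 binds a receptor that signals through Janus kinases to the transcription factor STAT6, and STAT6 switches on the genes of alternative activation. Retnla (RELMα, also called FIZZ1) and Chi3l3 (Ym1) are classic markers of that state in mouse macrophages. Retnla is a cysteine-rich protein of the resistin-like molecule (RELM) family. Chi3l3 and Chi3l1 are chitinase-like proteins, lectins with the fold of a chitinase and no chitin-cleaving activity. Ear11 is an eosinophil-associated ribonuclease of the RNase A superfamily.

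Bone marrow of mice that lack miR-155 (line B6.Cg-Mir155tm1.1Rsky/J) was cultured with L929 supernatant, a source of macrophage colony stimulating factor. The resulting macrophages then received IL-4 at 20 ng/ml (KO M2), LPS at 100 ng/ml with IFN-γ at 20 ng/ml (KO M1) or medium alone (KO M0) for 24 hours. Each condition was measured on 2 Affymetrix mouse arrays, labelled biological replicate 1 and 2, giving 6 arrays. The sources used here do not state that arrays with the same number come from the same mouse. All of them, the unstimulated ones included, lack miR-155, and wild-type macrophages were not analysed here, so no value below shows an effect of the deletion. The dose of LPS is that of the sample labels, and another dose stands in the study's methods.

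The values are linear intensities normalized by the authors with RMA, a method that subtracts background, brings the arrays to one distribution and sums up the probes of each probe set. Array medians ran from 37.9 to 40.8. The probe set annotated to Mir155, the gene of the deleted microRNA, read 9.33 to 10.8 over the 6 arrays, below these medians. The sources used here do not say whether its probes lie in the deleted part. Log2 intensities were compared with limma over all 45037 probe sets, using one estimate of the spread for the 3 conditions, and a gene was called at a Benjamini-Hochberg adjusted p under 0.05. All 9 macrophage identity genes measured lay above the array median in every condition. Of 6 eosinophil markers measured, the number above it on both arrays was 1 in KO M2, 0 in KO M1 and 1 in KO M0. In bulk RNA, fewer cells of a type and less RNA per cell cannot be told apart.

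Retnla was one of the most strongly induced transcripts of KO M2 macrophages. It read 10776 in replicate 1 and 8509 in replicate 2 after IL-4 (KO M2), 37.9 and 38.9 in KO M1, with 33.7 and 32.1 in KO M0. Both KO M2 arrays lay far above all others, and the KO M1 and KO M0 arrays all sat near or below their array medians. The log2 fold change (FC) of KO M2 over KO M0 was 8.19 (SE 0.14, 95% CI 7.86 to 8.51, adjusted p = 6e-08 from limma), a 291-fold difference. This was the second largest rise of the 45037 probe sets. Over KO M1 the rise was 7.96 on the log2 scale (SE 0.14, adjusted p = 5.3e-08), or 249-fold. Between KO M1 and KO M0 the log2 FC of 0.22 (SE 0.14, 95% CI -0.10 to 0.55, adjusted p = 0.44) did not pass the test.

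Ear11 gave nearly the same profile. It read 3766 and 2732 in KO M2 (replicate 1, then replicate 2), 12.3 and 12.2 in KO M1, with 13.7 and 11.8 in KO M0. Outside KO M2 it was among the dimmest probe sets, between the percentiles 18.7 and 22.4 of its arrays, and in KO M2 it was between the percentiles 97.8 and 98.5. Its log2 change was 7.98 over KO M0 (SE 0.17, 95% CI 7.60 to 8.37, adjusted p = 1.2e-07 from limma), a 253-fold rise. Over KO M1 it was 8.03 (SE 0.17, adjusted p = 1.2e-07), or 262-fold. The size of these changes depends on how the dim values are treated. With an offset of 16 added to all intensities the log2 change was 6.81 over KO M0 (adjusted p = 1.1e-04) and 6.83 over KO M1 (adjusted p = 8.3e-05). Whether Ear11 lies above the background of the array in KO M1 and KO M0 was not tested. The KO M1 and KO M0 arrays overlapped, with a log2 difference of -0.05 (95% CI -0.44 to 0.34, adjusted p = 0.91).

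Chi3l3 also rose, with a wider spread between the replicates. It read 4589 and 2764 in KO M2 (replicate 1, then replicate 2), 115 and 45.5 in KO M1, with 28.1 and 28.4 in KO M0. Both KO M2 arrays stood well above the rest. The log2 change of KO M2 over KO M0 was 6.98 (SE 0.39, 95% CI 6.09 to 7.86, adjusted p = 3.4e-05 from limma), a 126-fold rise that ranked 7 among all probe sets, or 6.34 with the offset. Over KO M1 it was 5.62 (SE 0.39, adjusted p = 4.4e-05), or 49.2-fold. Leaving out the KO M1 array of replicate 1 gave 6.29, and leaving out that of replicate 2 gave 4.95.

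In KO M1 macrophages Chi3l3 was the member that stood farthest from KO M0. The KO M1 arrays were 2.54-fold apart. The log2 change was 1.36 (SE 0.39, 95% CI 0.47 to 2.25), a 2.56-fold difference that did not pass the test (adjusted p = 0.079 from limma). The call rested on single arrays. The log2 FC was 2.03 (adjusted p = 0.0021) with the KO M1 array of replicate 2 left out, but 0.69 (adjusted p = 0.19) with that of replicate 1 left out.

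Chi3l1, the mouse counterpart of human YKL-40, did not follow the other chitinase-like gene. It read 25.7 and 20.6 in KO M2 (replicate 1, then replicate 2), 26.9 and 24.3 in KO M1, with 21.7 and 21.9 in KO M0. The KO M2 arrays lay on both sides of the KO M0 arrays, and all 6 values fell between the percentiles 34.5 and 40.5 of their arrays. The log2 change of KO M2 over KO M0 was 0.08 (SE 0.14, 95% CI -0.24 to 0.41, adjusted p = 0.83 from limma). That of KO M1 over KO M0 was 0.23 (95% CI -0.10 to 0.56, adjusted p = 0.43), and that of KO M2 over KO M1 was -0.15 (95% CI -0.47 to 0.18, adjusted p = 0.57). Whether a probe set this dim lies above the background of the array was not tested.

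**Figure D1:**
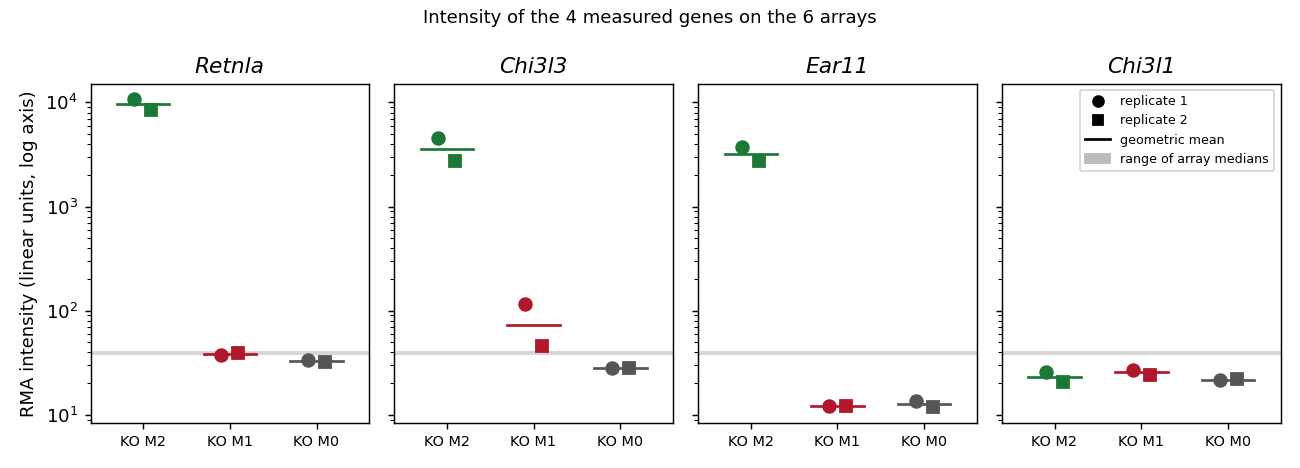
RMA intensity of Retnla, Chi3l3, Ear11 and Chi3l1 on a log axis in KO M2, KO M1 and KO M0 macrophages. Circles are replicate 1, squares are replicate 2, short lines are geometric means of the 2 replicates and the grey band is the range of the array medians, 37.9 to 40.8. The KO M2 points of the first 3 genes lie between 2732 and 10776, and those of Chi3l1 stay below the band.

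Taken over the measured genes, 3 of the 4 members measured were called higher in KO M2 over KO M0, where 4.5% of the 20967 genes were called higher and 3.06% lower (944 and 642 genes, or 1184 and 508 with the array medians set equal). The same 3 were higher in KO M2 over KO M1, where 9% of genes were called higher and 6.36% lower. None of the 4 was called in KO M1 against KO M0 by limma, where 3.79% of genes were called higher and 4.49% lower. At an unadjusted p under 0.05, Chi3l3 alone passed there by limma and Retnla alone by the methods' t-test. After Benjamini-Hochberg adjustment that t-test, with 2 arrays a group on linear intensities, called no gene in any comparison. The KO M2 and KO M1 comparisons share the KO M0 arrays. The shares of all genes given here belong beside every count of genes called by limma below, in the same comparison.

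**Figure D2:**
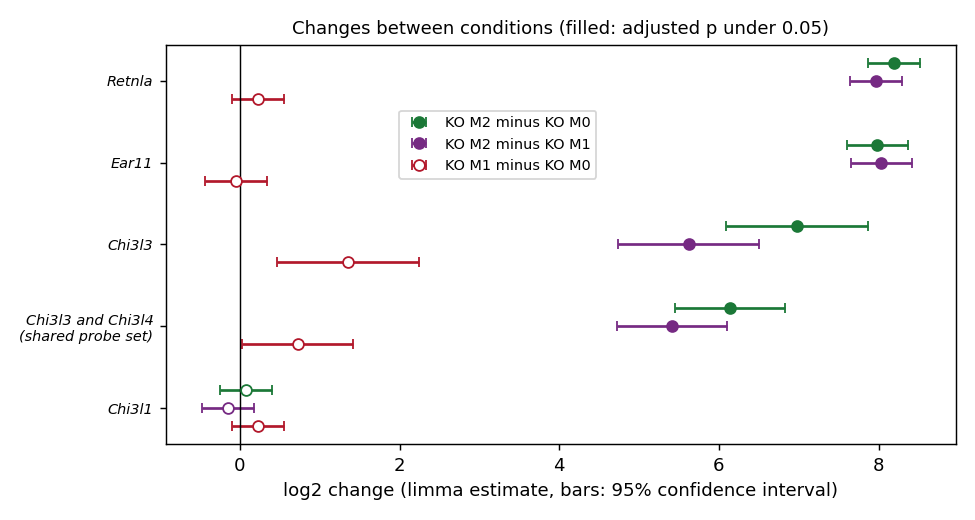
Log2 change of each measured gene, and of the probe set shared by Chi3l3 and Chi3l4, in the 3 comparisons. Points are limma estimates with 95% confidence intervals, and filled points passed an adjusted p of 0.05. The KO M2 changes of Retnla, Ear11 and Chi3l3 lie between 5.62 and 8.19, and the open points lie between -0.15 and 1.36.

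The replicates differed more in KO M2 than in KO M0 for the induced genes. In KO M2 replicate 1 read higher than replicate 2 for each of the 4 genes, by 1.27-fold for Retnla, 1.25-fold for Chi3l1, 1.38-fold for Ear11 and 1.66-fold for Chi3l3. In KO M0 these ratios lay between 0.989 and 1.16. The 95% confidence intervals of the KO M2 over KO M0 changes of Retnla and Ear11 overlapped. The Gapdh control probes, whose 3′ over 5′ log2 ratio tracks RNA integrity and labelling, gave 0.20 and 0.11 in KO M2, 0.09 and 0.15 in KO M1, with -0.08 and -0.07 in KO M0. Its part in these results was not tested.

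The profiles were compared after each was centred on its own mean over the 6 arrays, with the root mean square difference of the log2 values as the measure. On the log2 scale the gene most like Retnla was Ear11, at 0.13. Mgl2, a galactose-binding lectin of macrophages, followed at 0.16, then Tmem26 at 0.31, the arginase gene Arg1 at 0.66 and the cytokine signalling inhibitor Socs2 at 0.82. For Ear11 the nearest were Retnla at 0.13, Mgl2 at 0.16, Tmem26 at 0.23, Arg1 at 0.74 and Socs2 at 0.78. The same 5 positions were thus filled by 4 shared genes and by the pair itself. The order depended on the dim values of Ear11. With the offset of 16, chosen for this measure after the data were seen, Mgl2 at 0.17, Tmem26 at 0.24 and Arg1 at 0.31 were nearer to Retnla than Ear11 at 0.35.

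Apart from Socs2, the genes nearest to Chi3l3 on the log2 scale were others. Pdcd1lg2, which encodes the ligand PD-L2, was nearest at 0.55, before Socs2 at 0.69, the cholesterol 25-hydroxylase gene Ch25h at 0.69, the eosinophil-attracting chemokine Ccl24 at 0.74 and 4833422F24Rik at 0.75. Pdcd1lg2 read 2119 and 1335 in KO M2 (replicate 1, then replicate 2), 85.7 and 43.2 in KO M1, with 35.1 and 30.4 in KO M0. As with Chi3l3, replicate 1 was the higher in KO M2 and in KO M1. Chi3l3 itself stood 1.04 from Retnla and 1.07 from Ear11, and Chi3l1 stood 3.04 to 3.82 from the other members. With the offset Pdcd1lg2 was again the nearest to Chi3l3, at 0.52. These likenesses describe 6 arrays in 3 conditions and have no test.

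The promoter windows of the measured members and of Chi3l4 were searched for STAT motifs and are shown. STAT6 binds palindromes of TTC and GAA with a 4-base gap (TTCNNNNGAA), while STAT proteins in general bind those with a 3-base gap (TTCNNNGAA). Each window runs from 250 bases before the annotated start to 50 after it, 5′ to 3′ on the gene's strand, from RefSeq on GRCm38.p6. All 5 genes had a window, Chi3l3 under the current symbol Chil3, Chi3l1 under Chil1 and Ear11 under Rnase2a. Both strands were searched for the STAT motifs, for CCAAT and TATAAA, and for a C/EBP-type pair (TTGC and GCAA 0 to 2 bases apart). In the windows of Retnla (chr16:48842359-48842658, plus strand) and Chi3l3 (chr3:106167515-106167814, minus strand) the capitals mark a STAT motif and a TATAAA, and in that of Chi3l3 also a CCAAT. The window of Chi3l4 (chr3:106219430-106219729, minus strand) is set beside that of Chi3l3, with its STAT motif and TATAAA in capitals.
Retnla: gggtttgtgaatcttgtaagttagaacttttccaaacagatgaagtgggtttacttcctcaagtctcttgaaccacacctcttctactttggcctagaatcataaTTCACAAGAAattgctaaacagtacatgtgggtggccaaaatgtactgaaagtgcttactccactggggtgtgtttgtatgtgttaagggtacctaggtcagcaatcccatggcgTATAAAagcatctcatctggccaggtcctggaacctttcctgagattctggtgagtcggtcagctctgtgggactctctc
Chi3l3: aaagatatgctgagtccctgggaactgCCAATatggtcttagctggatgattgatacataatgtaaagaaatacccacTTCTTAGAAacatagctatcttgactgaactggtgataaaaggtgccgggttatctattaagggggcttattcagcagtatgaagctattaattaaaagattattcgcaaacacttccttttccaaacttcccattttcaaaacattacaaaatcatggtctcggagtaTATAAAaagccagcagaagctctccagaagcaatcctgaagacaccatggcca
Chi3l4: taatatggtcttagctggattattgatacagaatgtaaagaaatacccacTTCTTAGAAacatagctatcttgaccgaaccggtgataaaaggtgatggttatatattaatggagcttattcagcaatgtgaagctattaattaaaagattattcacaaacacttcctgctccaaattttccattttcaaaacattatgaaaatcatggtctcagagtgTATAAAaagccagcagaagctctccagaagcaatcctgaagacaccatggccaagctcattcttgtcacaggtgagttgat

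In Retnla the capitals hold ttcacaagaa, a match to TTCNNNNGAA at -145 to -136, and TATAAA at -30 to -25. The window of Retnlg (chr16:48872358-48872657, plus strand), the unmeasured neighbour of Retnla on chromosome 16, held the related match ttcacaggaa at -72 to -63. Of 32817 windows of this length, 6.94% held TTCNNNNGAA. Retnla and Retnlg shared 178 of 225 aligned bases (79.1%). Chi3l3 and Chi3l4 both held ttcttagaa, a match to TTCNNNGAA, at -172 to -164 in Chi3l3 and at -200 to -192 in Chi3l4, and 8.29% of windows held that motif. TATAAA lay at -31 to -26 in Chi3l4 and across the annotated start of Chi3l3, at -3 to 3, and 13.6% of windows held it. Chi3l3 and Chi3l4 shared 251 of 271 aligned bases (92.6%). For comparison, the windows of Retnla and Chi3l3, genes of different families, shared 156 of 251 (62.2%) when aligned in the same way.

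The windows of Ear11 (chr14:51256063-51256362, minus strand), which rose like Retnla, and of Chi3l1 (chr1:134181906-134182205, plus strand), which was not called, held neither STAT motif. They are shown for comparison, with CCAAT in capitals, a motif that 37.4% of windows held.
Ear11: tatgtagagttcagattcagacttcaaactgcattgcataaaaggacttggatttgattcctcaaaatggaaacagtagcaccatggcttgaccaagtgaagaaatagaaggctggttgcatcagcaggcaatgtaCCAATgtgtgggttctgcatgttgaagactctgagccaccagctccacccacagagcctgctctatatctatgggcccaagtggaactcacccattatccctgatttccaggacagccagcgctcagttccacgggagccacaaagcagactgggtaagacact
Chi3l1: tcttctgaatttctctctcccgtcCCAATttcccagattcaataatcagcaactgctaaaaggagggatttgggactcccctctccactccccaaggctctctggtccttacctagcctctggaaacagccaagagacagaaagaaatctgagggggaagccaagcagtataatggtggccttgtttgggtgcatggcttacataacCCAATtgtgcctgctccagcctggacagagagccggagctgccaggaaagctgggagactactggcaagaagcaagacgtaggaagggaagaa

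CCAAT lay at -114 to -110 in Ear11, and at -226 to -222 and -43 to -39 in Chi3l1. The C/EBP-type pair, in 0.835% of all windows, was in none of the 6 windows described. The induced members thus differed in what their windows held, with TTCNNNNGAA in Retnla, TTCNNNGAA in Chi3l3 and neither in Ear11. The windows of Ear2, Ear5 (current symbol Rnase2b) and Mgl2, genes also called higher in KO M2 over KO M0, were searched too. They held CCAAT and neither STAT motif. A match of letters is a description of this window alone and does not show that a factor binds there.

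**Figure D3:**
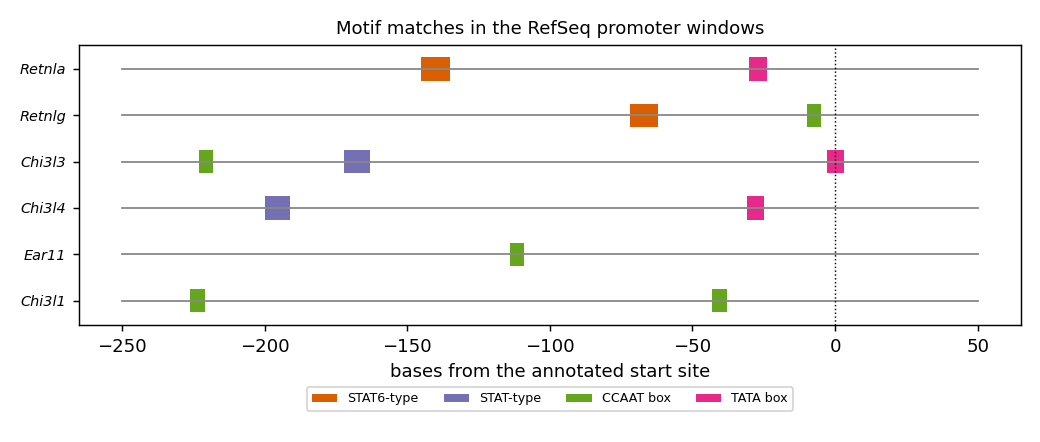
Motif matches in the RefSeq promoter windows of the 5 genes and Chi3l4, by distance in bases from the annotated start site (dotted line). Each coloured block is 1 match on either strand, and the window runs from 250 bases before to 50 after the start. Retnla and Retnlg carry the STAT6-type match, and Chi3l3 and Chi3l4 the STAT-type match. CCAAT boxes lie in Retnlg, Chi3l3, Ear11 and Chi3l1.

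Within the RELM family the rise was seen for Retnla, and the other 2 members measured were not called. Retn, which encodes the adipose hormone resistin, read 96.4 and 90.0 in KO M2, 89.6 and 97.8 in KO M1, with 88.6 and 98.7 in KO M0. Retnlb, which encodes an intestinal RELM protein, read 21.9 and 15.3 in KO M2, 20.4 and 14.8 in KO M1, with 23.0 and 17.8 in KO M0. The conditions overlapped for both genes. Their log2 changes of KO M2 over KO M0 were -0.01 (SE 0.13) and -0.15 (SE 0.22), and neither passed an unadjusted p of 0.05 by limma.

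Over all genes, 4.5% were called higher in KO M2 over KO M0 and 3.06% lower. Among the other chitinases and chitinase-like genes, 1 of 6 measured was called higher in that comparison and none lower. This was Chi3l4 (Ym2), the close paralog of Chi3l3. Its own probe set was dim, with 19.1 and 16.1 in KO M2, 10.3 and 8.5 in KO M1, with 8.9 and 9.9 in KO M0. Both KO M2 arrays lay above the rest, with a log2 FC of 0.90 (SE 0.15, adjusted p = 0.009 from limma). With the offset it was 0.40 (adjusted p = 0.039). The call was lost without the KO M0 array of replicate 1 (adjusted p = 0.10), that of replicate 2 (0.053) or the KO M2 array of replicate 1 (0.077). The true chitinases Chit1 and Chia had log2 changes of -0.07 (SE 0.13) and -0.10 (SE 0.12), and the 5 genes not called lay between -0.10 and 0.11. The median over the 6 was 0.04, beside 0.00 to 2 decimals over all genes, and that over the 13 other RNase A genes described next was 0.25.

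The probe set annotated to both Chi3l3 and Chi3l4 read 2157 and 1610 in KO M2, 63.6 and 30.2 in KO M1, with 26.2 and 26.7 in KO M0. Its log2 change of KO M2 over KO M0 was 6.14 (SE 0.30, adjusted p = 1.8e-05 from limma), and that of KO M1 over KO M0 was 0.72 (SE 0.30, adjusted p = 0.22). As for the Chi3l3 probe set, replicate 1 was the higher in KO M2 and KO M1. How far each of the 2 paralogs contributes to the probe sets of the other was not tested.

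In the RNase A superfamily 3 of 13 other members measured were called higher in KO M2 over KO M0 and none lower. The shares over all genes were 4.5% and 3.06%. All 3 called members were eosinophil-associated ribonucleases. Ear2 read 904 and 390 in KO M2, 26.9 and 45.2 in KO M1, with 27.4 and 25.9 in KO M0. The KO M2 arrays were both above the rest although they differed between the replicates. The log2 change of Ear2 was 4.48 (SE 0.36, adjusted p = 2.4e-04 from limma), or 3.87 without KO M2 of replicate 1 and 5.08 without KO M2 of replicate 2. Ear3 had 34.6 and 22.3 in KO M2, 7.6 and 7.1 in KO M1, with 7.9 and 7.5 in KO M0, a log2 FC of 1.86 over KO M0 (SE 0.19, adjusted p = 8.8e-04). Ear5 had 17.9 and 21.2 in KO M2, 9.7 and 8.8 in KO M1, with 7.7 and 8.9 in KO M0, a log2 FC of 1.24 over KO M0 (SE 0.14, adjusted p = 0.0016).

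Ear3 and Ear5 stayed below the array median even in KO M2. With the offset of 16 their log2 changes were 0.90 (adjusted p = 0.019) and 0.55 (adjusted p = 0.016), and that of Ear2 was 3.84. At an unadjusted p under 0.05, 6 of the 13 were higher in KO M2 over KO M0 and none was lower. The share of all genes past that unadjusted threshold by limma was not counted, so this count has nothing to be set against. The 10 superfamily members not called lay between -0.17 and 0.56, among them Ear1 at 0.10 (SE 0.14) and Ear4 at 0.44 (SE 0.17, adjusted p = 0.20 from limma). The Ear genes are close relatives, and how far their transcripts share probes was not tested. Over KO M1, Rnase6 was called higher in KO M2 beside the 3 Ear genes, at 1.14 (SE 0.19, adjusted p = 0.0043). In KO M1 against KO M0, none of the 2 RELM, 6 chitinase and 13 RNase A genes was called by limma. At an unadjusted p under 0.05 there, 1 RNase A gene was higher and 2 were lower, 1 chitinase gene was lower, and no RELM gene passed.

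**Figure D4:**
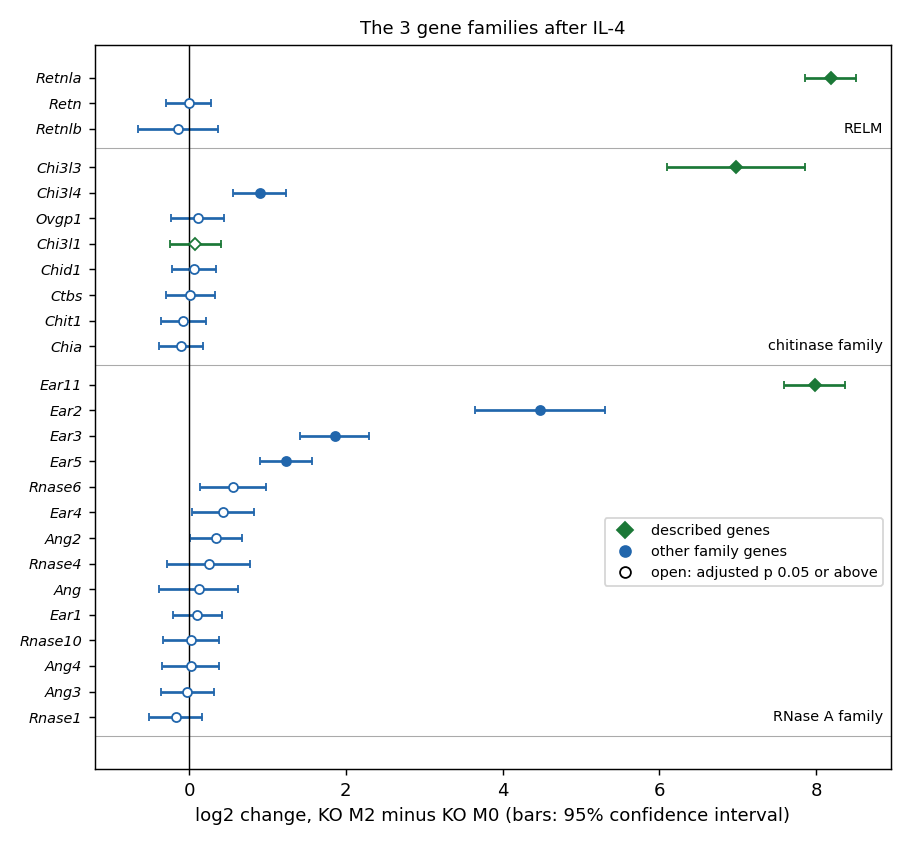
Log2 change of KO M2 over KO M0 for every measured gene of the RELM, chitinase and RNase A families. Diamonds are the described genes, circles their relatives, bars 95% confidence intervals, and open symbols had an adjusted p of 0.05 or above. Retnla, Chi3l3 and Ear11 lie at 6.98 to 8.19, Ear2 at 4.48, and the other relatives below 2.

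Genes that lie beside the members on the chromosome were compared as well, with the nearest 3 protein-coding genes on each side by the RefSeq order on GRCm38.p6. Of 18 such neighbours with a probe set, 2 were called higher in KO M2 over KO M0 and none lower. The shares over all genes were 4.5% and 3.06%. Both called neighbours were family members, Chi3l4 beside Chi3l3 and Ear5 near Ear11. The other 16 had log2 changes between -0.26 and 0.35, among them Retnlb beside Retnla.

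The induced genes were set beside the genes of the IL-4 pathway. Of 11 genes of the IL-4 receptor and its signalling, 3 rose in KO M2 against KO M0, 2 fell and 6 did not pass the test. The rising genes were the feedback inhibitors Cish, by a log2 FC of 4.21 (SE 0.18, adjusted p = 8.5e-06 from limma), and Socs1, by 3.81 (SE 0.41), and the adaptor Irs2, by 1.55 (SE 0.15). The falling genes were the phosphatase Ptpn6, by -1.14 (SE 0.23, adjusted p = 0.022), and the IL-13 receptor chain Il13ra1, by -0.91 (SE 0.16, adjusted p = 0.013). The adjusted p of Ptpn6 was 0.091 to 0.17 without any 1 array of KO M2 or KO M0, and that of Il13ra1 was 0.067 to 0.13 when an array of KO M0 or that of replicate 2 in KO M2 was omitted. Stat6 itself had a log2 FC of 0.01 (SE 0.12, adjusted p = 0.98), with 1842 and 1690 in KO M2 and 1714 and 1791 in KO M0, and the receptor chain Il4ra had 0.24 (SE 0.18, adjusted p = 0.54). The median of the list was 0.04.

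Of 10 transcription factors of the IL-4 programme measured, 6 were higher in KO M2 and none lower. They were Bhlhe40 at 3.79 (SE 0.33), Irf4 at 3.70 (SE 0.14, adjusted p = 3.1e-06 from limma), Klf4 at 3.39 (SE 0.31), Egr2 at 2.95 (SE 0.52, adjusted p = 0.011), Batf3 at 2.71 (SE 0.15) and the lipid-sensing receptor gene Pparg at 0.77 (SE 0.12, adjusted p = 0.0063). The adjusted p of Egr2 was 0.072 to 0.10 without any 1 array of these groups, and that of Pparg was 0.056 to 0.067 when an array of KO M0 or that of replicate 1 in KO M2 was omitted. Of 20 other secreted or surface IL-4 response genes, 13 were higher and none lower. Arg1 rose by 9.75 (SE 0.22, adjusted p = 1.8e-07), Mgl2 by 7.96 (SE 0.13), Ch25h by 5.87 (SE 0.33) and Pdcd1lg2 by 5.68 (SE 0.32). The list medians were 1.74 for the transcription factors and 2.62 for the other response genes.

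In KO M1 the receptor and several factors moved while the members were not called. Il4ra was higher than in KO M0 by 1.35 (SE 0.18, adjusted p = 0.0028 from limma), and the kinase gene Jak3 by 0.76 (SE 0.15, adjusted p = 0.021, lost at 0.12 to 0.15 on omitting either KO M0 array and at 0.059 on omitting replicate 2 of KO M1). Of the transcription factors, Cebpb rose by 1.48 (SE 0.16, adjusted p = 9.2e-04) and the histone demethylase gene Kdm6b by 1.00 (SE 0.19, adjusted p = 0.015, lost at 0.096 to 0.12 on omitting either KO M0 array). Pparg fell by a log2 FC of -2.88 (SE 0.12, adjusted p = 2.1e-05), and Egr2 by -3.32 (SE 0.52, adjusted p = 0.0063, lost at 0.072 on omitting replicate 1 of KO M0). Of the 20 other response genes 3 were higher and 6 were lower. The largest changes were those of 3 lectin receptor genes, with Mrc1 at -4.36 (SE 0.19, adjusted p = 3.1e-05), Clec10a at -3.35 (SE 0.19) and Clec7a at -3.34 (SE 0.38). Arg1, which was among the 3 higher genes, had 0.93 (SE 0.22, adjusted p = 0.041 from limma). It read 14.6 and 22.6 in KO M1 (replicate 1, then replicate 2) and 10.4 and 8.8 in KO M0, all below the array medians. Whether Arg1 lies above the background of the array in these conditions was not tested. The medians of the 3 lists in KO M1 were 0.32, -0.35 and 0.00, beside 0.05 for all genes.

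Of 4 genes for proteins known to bind CHI3L1 or its receptor complex, Cd44 alone was called in KO M2 against KO M0, at 1.03 (SE 0.23, adjusted p = 0.032 from limma). Its adjusted p was 0.12 to 0.21 without any 1 array of these groups. The list median was -0.04. In KO M1 against KO M0, Lgals3 alone was called, at -0.69 (SE 0.12, adjusted p = 0.012, lost at 0.091 to 0.11 on omitting either KO M0 array).

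**Figure D5:**
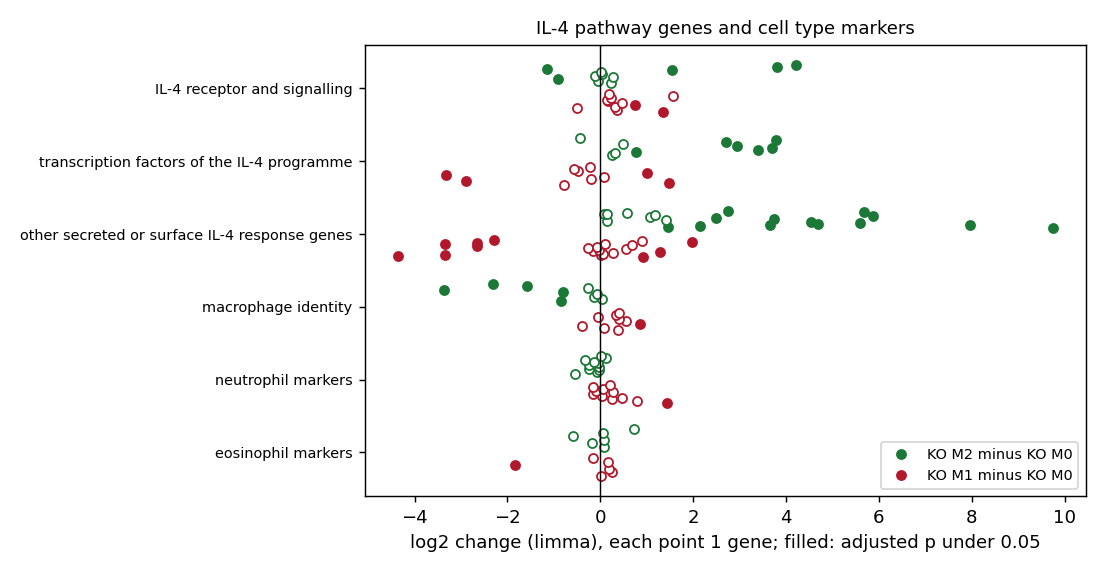
Log2 change of each gene of the IL-4 pathway lists and of 3 cell type marker lists, for KO M2 over KO M0 (green) and KO M1 over KO M0 (red). Filled points had an adjusted p under 0.05 by limma. In KO M2, 13 of 20 other IL-4 response genes and 6 of 10 transcription factors are filled on the right, while no eosinophil or neutrophil marker is filled.

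Because Ear11 and its relatives are named for eosinophils, markers of that cell type were examined on the same arrays. None of 6 eosinophil markers measured was called in KO M2 against KO M0 by limma. At an unadjusted p under 0.05, 1 was higher and 1 lower. Siglec5 read 11.7 and 21.1 in KO M2, with 9.6 and 9.3 in KO M0, a log2 FC of 0.73 (SE 0.25, adjusted p = 0.14). Ccr3, an eotaxin receptor gene, read 46.8 and 44.5 in KO M2, 15.6 and 23.6 in KO M1, with 65.7 and 72.0 in KO M0. Its log2 FC was -0.59 in KO M2 (SE 0.19, adjusted p = 0.11) and -1.84 in KO M1 (SE 0.19, adjusted p = 8.2e-04), each against KO M0. With KO M1 left out of the fit, the adjusted p in KO M2 was 0.019. Over KO M1, 1 of the 6 markers was called higher in KO M2 and none lower, beside 9% and 6.36% of all genes. This was Ccr3, at 1.25 (SE 0.19, adjusted p = 0.0029 from limma), while Siglec5 had 0.89 (SE 0.25, adjusted p = 0.052). The summed intensity of the 6 markers was 134 to 140 in KO M2, 105 to 116 in KO M1 and 149 to 155 in KO M0. The granule genes Epx, Prg2 and Prg3 read 14.7 to 19.6 in KO M2 and 16.4 to 18.4 in KO M0, below the array medians. The part of eosinophils in the level of Ear11 was not tested. None of 11 neutrophil markers was called there either, nor did any pass an unadjusted p of 0.05, with sums of 543 to 738 in KO M2, 902 to 1039 in KO M1 and 699 to 790 in KO M0. None of 8 mast cell and basophil markers and none of 8 fibroblast and epithelial markers was called, and 1 of 10 T, NK and B cell markers, Cd4, was lower, at -0.79 (SE 0.13, adjusted p = 0.0092, lost at 0.055 to 0.10 on omitting either KO M0 array or replicate 2 of KO M2). In KO M1 against KO M0, 1 gene each was called in the neutrophil list (S100a8 at 1.44, adjusted p = 0.014), the mast cell and basophil list (Hdc at 0.62, adjusted p = 0.037), the fibroblast and epithelial list (Dcn at 1.09, adjusted p = 0.042) and the macrophage list (Itgam at 0.86, adjusted p = 0.0076). Leaving out single arrays took away each of these 4 calls, with an adjusted p of 0.067 to 0.13 for S100a8 on omitting either KO M0 array and 0.093 for Itgam on omitting replicate 1 of KO M0. The highest adjusted p was 0.26 for Hdc and 0.28 for Dcn, both without replicate 2 of KO M0.

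Macrophage identity genes moved in the same comparison. Of 9 measured, 5 were lower in KO M2 relative to KO M0 and none higher, with sums of 57922 to 60922 in KO M2, 87797 to 88056 in KO M1 and 80299 to 81529 in KO M0. They were the Fc receptor gene Fcgr1 at -3.36 (SE 0.23), Aif1 at -2.31 (SE 0.19), the LPS co-receptor gene Cd14 at -1.57 (SE 0.22), Emr1 at -0.85 (SE 0.13, adjusted p = 0.0071 from limma) and Mertk at -0.81 (SE 0.19, adjusted p = 0.036). Emr1 lost its call without KO M0 of replicate 2 (adjusted p = 0.078) or KO M2 of replicate 1 (0.062). Mertk lost it without any 1 array of these groups (0.082 to 0.23) and with the array medians set equal (0.051). The part of these changes in the rise of the members was not tested. All 9 still lay above the array median on both KO M2 arrays.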

How the data were processed

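RNA of KO M2, KO M1 and KO M0 macrophages from miR-155 KO mice was measured on 6 Affymetrix mouse arrays. A further KO sample was removed by the authors for its RNA quality. RMA was run by the authors in GenePattern (Expression File Creator), and linear intensities were deposited in 2 tables that match within 5e-06. The sources used here do not give the RMA version. RMA has no detection call, and the number of arrays limits the precision. The deposited table also holds condition means and the authors' own folds, p-values and variation columns, none of which was used.

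The deposited intensities were log2 transformed. Of 45101 probe sets, 64 controls were left out. By the deposited annotation 38544 had 1 symbol, 859 several and 5634 none. A gene in a count or list was represented by its single-symbol probe set with the highest mean. All 6 arrays entered one limma fit (version 3.58.1, R 4.3.3), by lmFit and eBayes with neither trend nor robust setting (3 residual and 5.49 prior degrees of freedom), two-sided, with Benjamini-Hochberg adjustment over 45037 probe sets. The fit was tested on simulated data. The members and gene lists were chosen with earlier results of these data known. All members are named. From each list the genes named are the 2 to 4 that changed most among those past the test, plus all called genes where 5 or fewer were called. Bhlhe40, Irf4, Klf4 and Egr2 fall under this rule, while Batf3, Pparg, Stat6, Il4ra in KO M2, Arg1 in KO M1, Siglec5, Ccr3 in KO M2, the granule genes, relatives not called and neighbouring genes were named after their values were seen. The 5 genes most like each member with at least a 2-fold range were named.

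Arrays share the numbers 1 and 2 in their titles, but no source used here states that a number marks 1 mouse, so the main fit has no block. The 2 replicates correlated at 0.995 over probe sets in KO M2, at 0.992 in KO M1 and at 0.996 in KO M0. Promoter windows and gene order came from RefSeq tables of GRCm38.p6, matched by symbol or synonym. No protein sequence was used here.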

Additional observations from a re-analysis of the deposited data

How the results depend on the processing

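The calls of Retnla, Ear11 and Chi3l3 in KO M2, against KO M0 and against KO M1, held with limma under every alternative run. They were lost only with the methods' t-test, which was run here on linear intensities. The methods do not state the scale for that test, and it was not run on log2 values. That test, with 2 arrays a group, gave 0 genes and 0 members in all 3 comparisons after Benjamini-Hochberg adjustment. At its unadjusted threshold it gave 1898 genes higher and 1487 lower in KO M2 against KO M0, and 1682 higher in KO M1 against KO M0, with 1 member there, Retnla. By this t-test on linear intensities, the unadjusted p of Chi3l3 in KO M2 was 0.057 against KO M0 and 0.059 against KO M1. An offset of 16 on the intensities, which shrinks changes of dim probe sets, brought the log2 change of KO M2 over KO M0 to 7.62 for Retnla, 6.81 for Ear11, 6.34 for Chi3l3, 3.84 for Ear2, 0.90 for Ear3, 0.55 for Ear5, 0.40 for Chi3l4, 8.33 for Arg1, 7.29 for Mgl2, 5.11 for Ch25h and 3.07 for Irf4, and that of KO M1 over KO M0 to -2.63 for Egr2. All of these stayed past the threshold. Arrays with the same number, once group means were taken off, correlated at 0.209 (KO M2 with KO M0), -0.162 (KO M1 with KO M0) and -0.215 (KO M2 with KO M1). Since each group has 2 arrays, these values cannot decide whether a number marks 1 mouse, and the main fit left the number out. With the number as a replicate block, 704 genes were higher and 508 lower in KO M2 against KO M0, 593 and 798 in KO M1 against KO M0, and 1616 and 1124 in KO M2 against KO M1. With the numbers of the KO M1 arrays crossed, an alternative added after the data were seen, these counts were 1232 and 845, 1048 and 1170, and 2176 and 1623. Chi3l3 was called in KO M1 against KO M0 with the block (adjusted p = 0.037, 1 member) and not with the crossed block (0 members). With the block Cd44 in KO M2 and Hdc in KO M1 were no longer called (adjusted p = 0.050 each).

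Leaving out 1 array at a time, 324 to 1229 genes were higher and 217 to 877 lower in KO M2 against KO M0. The lowest counts came without KO M0 of replicate 1. In KO M1 against KO M0, 206 to 942 genes were higher and 358 to 1005 lower, with 0 to 1 members higher. In KO M2 against KO M1, 1048 to 1778 were higher and 690 to 1359 lower. An arm left with a single array is assumed to vary like the others. Some log2 FCs near 0 changed sign. With 1 array left out, Chi3l1 ranged from -0.077 to 0.24 in KO M2 against KO M0 and from -0.307 to 0.01 in KO M2 against KO M1, and Ear11 from -0.158 to 0.058 in KO M1 against KO M0. In KO M2 against KO M0, Stat6 ranged from -0.052 to 0.072 and Il4ra from -0.024 to 0.507, and Stat6 had -0.038 with quantile normalization. Egr2 lost its calls with a trended, robust variance (adjusted p = 0.12 in KO M2 and 0.087 in KO M1 against KO M0), and Ptpn6 and Cd44 with the offset (0.062 and 0.074), as did Mertk (0.069). In KO M1 against KO M0, Dcn and Hdc lost theirs with the offset (0.10 and 0.051) and with KO M2 left out of the fit (0.074 and 0.064). With dim probe sets left out, 23624 remained and Chi3l1 was not among them.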
